A study of Mus musculus with 12 samples.

Results

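Splicing factors were followed as a group of 63 genes in spinal motor neurons of mice that carry a mutation in TDP-43. The group took in each entry of the deposited count table whose symbol begins with Srsf, Sf3, Snrp, Hnrnp, Ptbp, Nova, Rbfox, Celf, Elavl or Mbnl, which makes 10 families. Of the 25965 entries of the table, 69 had such a symbol. Hnrnpa1, Hnrnpa2b1, Hnrnpa3, Rbfox1 and Rbfox3 were left out by name, and no entry was a pseudogene marked -ps. A mean of at least 20 counts over the 12 libraries was required, which left out Mbnl3 alone, at 0 counts. The least abundant gene kept was Celf3, with a mean of 56.5 counts. No measured difference between genotypes entered the choice.

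Lower motor neurons had been captured by laser from lumbar cord, and all mice were C57BL/6 at 5 months of age. Of 12 libraries, 4 came from homozygous knock-in mice (Q331K/Q331K), 4 from heterozygotes (Q331K/+) and 4 from wild type mice (+/+). Q331K is an amino acid change in TDP-43 linked to amyotrophic lateral sclerosis (ALS), placed in the animals' own Tardbp gene rather than added as a transgene. Nothing in the labels ties each library to a separate animal, so p-values measure only the spread between libraries, which may be technical.

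Most introns are removed by the spliceosome, whose U1 and U2 particles mark the ends and the branch point of an intron, and which is built on rings of Sm proteins. SR proteins mostly help an exon to be included, many hnRNPs oppose or tune that choice, and TDP-43 is itself an hnRNP-like protein that binds UG-rich RNA. Exon patterns of nerve cells are also shaped by PTBP2, NOVA, RBFOX, CELF, the neuronal ELAVL proteins and MBNL. Some of these, such as CELF1, are found in most tissues. Many splicing factors also control their own RNA through exons that lead to nonsense-mediated decay.

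Library totals ran from 60886825 to 83504446 counts. Values are given as CPM, a gene's counts divided by its library total after TMM scaling (a correction for library composition in edgeR), and levels of different genes are compared only as CPM per kilobase of merged annotated exons. Tardbp lay between 62.3 and 78.8 CPM in all 12 libraries, with means of 75.6 ± 2.17 CPM in homozygotes, 73.0 ± 5.48 CPM in heterozygotes and 73.7 ± 7.68 CPM in wild type (SD, n = 4 each). Motor neuron markers were present in every library, with summed levels of 6172 to 11356 CPM in homozygotes, 5042 to 11449 CPM in heterozygotes and 4540 to 8412 CPM in wild type for the 9 of 10 listed markers found in the table. Homozygote replicate 1 and heterozygote replicate 1 stood apart from the other 10 libraries. Their summed excitatory interneuron markers were 4.99 and 0.563 CPM against 169.9 to 328 CPM in the others, and their inhibitory interneuron markers 0.870 and 3.75 CPM against 170.3 to 426 CPM. Their motor neuron sums of 11356 and 11449 CPM lay above the others, with Nefh, at 6947 and 6833 CPM, the largest part. Ret, at 228 and 260 CPM, lay within the 171.7 to 497.5 CPM of the others. Isl1, at 26.5 and 35.3 CPM, lay within their 4.21 to 46.2 CPM. Each remaining motor neuron marker found in the table lay above the others in both libraries. In bulk material, fewer cells of a type and less RNA per cell cannot be told apart.

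TDP-43 prefers runs of UG, written TG in DNA letters, so the longest annotated transcript of each gene was searched on its sense strand for 6 unbroken TG repeats (TGTGTGTGTGTG). Such a run was found in 4 of 63 splicing factor genes (6.35%) and in 1335 of 15937 tested genes with an annotated transcript (8.38%). Among transcripts of 2291.5 to 4967 bases, the middle range of the splicing factors, the shares were 2 of 31 (6.45%) for splicing factors and 612 of 7432 (8.23%) for the other genes. The genes with a run were Hnrnph2, Hnrnpd, Hnrnpr and Celf4. For the first 3 of these, 30 bases of the run from the GENCODE M21 transcripts (GRCm38) are shown 5′ to 3′ on the transcript strand, with the TG repeat in capitals. They are shown as examples of the letters that TDP-43 is known to bind, within RNAs of other splicing factors. They lie at chrX:134603329-134603358 on the plus strand in the 5′ UTR of Hnrnph2, at chr5:99958258-99958287 on the minus strand in the 3′ UTR of Hnrnpd, and at chr4:136351605-136351634 on the plus strand in the 3′ UTR of Hnrnpr.
Hnrnph2: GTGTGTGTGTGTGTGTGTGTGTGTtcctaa
Hnrnpd: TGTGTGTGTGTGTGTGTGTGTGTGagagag
Hnrnpr: ctcTGTGTGTGTGTGTGTGTGTGTGTttaa
The whole runs measured 37 bases in Hnrnph2, 43 in Hnrnpd and 23 in Hnrnpr. The Hnrnpd and Hnrnpr runs lie outside the entries of the deposited table, whose gene models end earlier. Introns, where much TDP-43 binding is known to lie, were not searched. These matches are letters in a transcript and say nothing of binding in these cells.

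Across the group, levels per kilobase spanned from Celf3, at 0.144 CPM per kilobase, to Snrpn, at 848 CPM per kilobase. The median of the 63 genes was 13.96 CPM per kilobase. Snrpn stood well above the next genes, Snrpb at 56.5, Srsf5 at 54.9, Hnrnpk at 51.0, Snrpe at 49.9 and Hnrnpc at 49.3 CPM per kilobase. The ranges of these 5 over libraries overlapped, so their order is not settled by these data. Which genes come next after Snrpn also depended on the length used. Within the bounds of the table entries, Sf3b5 was at 103 and Snrpd3 at 76.7 CPM per kilobase. With the longest annotated transcript, Hnrnpk was at 111 and Snrpe at 102 CPM per kilobase. The CELF family held the 4 genes at the low end, Celf6, Celf2, Celf5 and Celf3, all below 1 CPM per kilobase on average. The coefficient of variation over the 12 libraries had a median of 12.3% for splicing factors and 26.2% for all 16338 genes tested. At matched abundance, between 27.4 and 118 CPM, these medians were 12.4% for 31 splicing factors and 14.9% for 4294 genes.

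**Figure D1:**
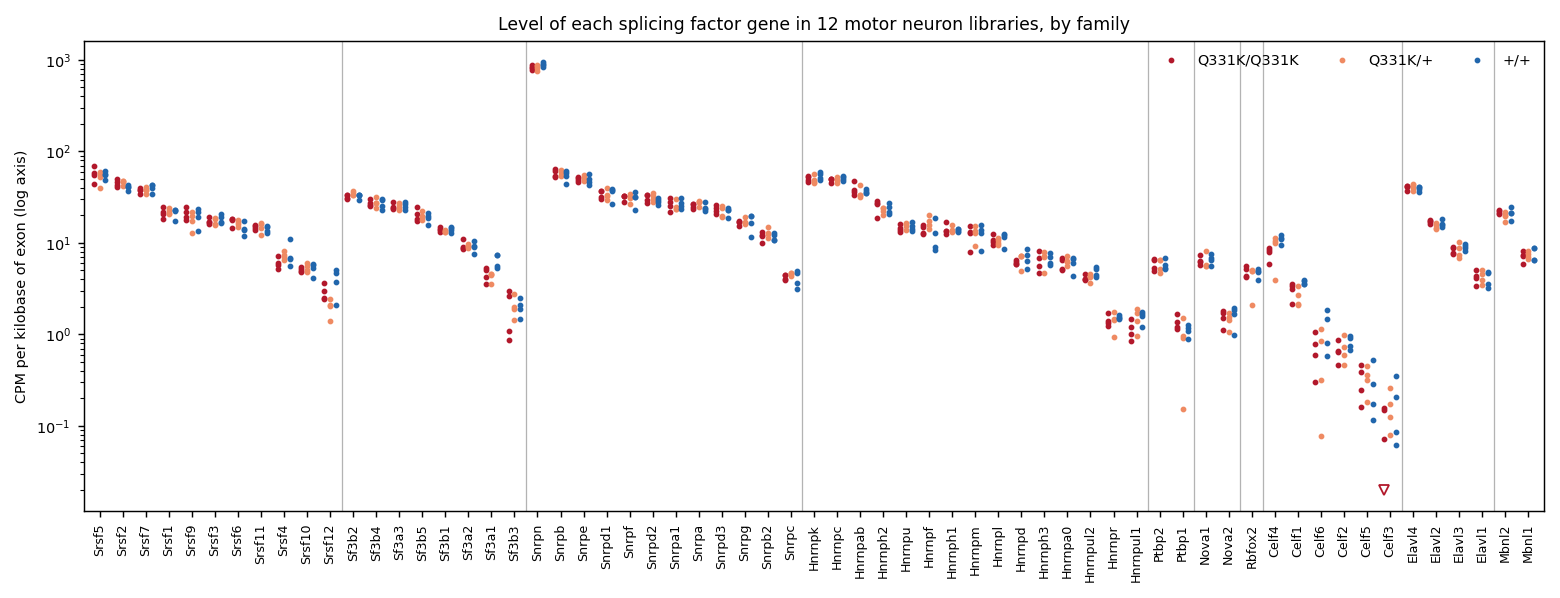
Level of each of the 63 splicing factor genes, as CPM per kilobase of merged exon on a log axis, with a point for each of the 12 libraries (4 per genotype) and grey lines between the 10 families. Snrpn stands above all others at 848 CPM per kilobase on average and the CELF genes reach down to 0.144; the open triangle marks the homozygote library without a Celf3 count.

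No splicing factor passed the test in any comparison of genotypes. In edgeR's quasi-likelihood test, adjusted by Benjamini-Hochberg over 16338 genes, 0 of 63 were called between homozygotes and wild type, where 0.00612% of all genes tested were called. Between heterozygotes and wild type 0 of 63 were called, against 0.0% of all genes, and between homozygotes and heterozygotes 0 of 63, again against 0.0%. A slope over the number of mutant alleles called 0 of 63, against 0.00612% of all genes. DESeq2 also called 0 of 63 in each of these 4 comparisons, against 0.0796%, 0.0551%, 0.0184% and 0.0673% of all genes in the same order. The comparisons share libraries, the wild type ones among them, and are not independent of each other.

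At an unadjusted edgeR p below 0.05, 2 of 63 splicing factors stood out between homozygotes and wild type, against 4.82% of all genes, and 4 of 63 between heterozygotes and wild type, against 4.10%. Homozygotes against heterozygotes gave 0 of 63, against 2.97%, and the allele slope 2 of 63, against 4.67%. By direction, 1 lay higher and 1 lower in homozygotes than in wild type, against 2.19% and 2.63%, and 1 higher and 3 lower in heterozygotes, against 1.79% and 2.31%. The allele slope had 1 positive and 1 negative, against 2.11% and 2.56%, and homozygotes against heterozygotes 0 in either direction, against 1.48% of all genes higher. At an unadjusted DESeq2 p below 0.05 there were 3 splicing factors between homozygotes and wild type, 5 between heterozygotes and wild type, 0 between homozygotes and heterozygotes and 3 for the slope, against 5.75%, 4.87%, 3.54% and 5.85% of all genes. Groups that did not overlap were found for 3 genes lower and 0 higher in homozygotes than in wild type, against 2.12% and 1.29% of all genes, and for 2 lower and 0 higher in heterozygotes, against 1.76% and 1.48%. Between homozygotes and heterozygotes 1 gene lay higher and 1 lower without overlap, against 1.03% and 0.998%. Each of these counts of splicing factors was 5 or fewer genes, too few to set them apart from the shares of all genes.

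The differences were small and spread to both sides of 0. Between homozygotes and wild type the median log2 difference was -0.015 for splicing factors and -0.0032 for all genes, with 28 of 63 above 0 against 49.4% of all genes. In heterozygotes against wild type it was -0.042 and -0.0013, with 27 of 63 above 0 against 49.7%, and between homozygotes and heterozygotes 30 of 63 lay above 0 against 49.8%. A log2 difference within 0.25 of 0 was found for 52 of 63 splicing factors (82.5%) between homozygotes and wild type, and for 57.7% of all genes. The 95% interval excluded a 2-fold difference either way for 57 of 63 (90.5%) in that comparison and for 57.3% of all genes. It excluded a 1.5-fold difference for 49 of 63 (77.8%) and for 34.9% of all genes. These shares are not matched for abundance, and the median SE was 0.13 for splicing factors and 0.27 for all genes. They do not show that splicing factors changed less than other genes of like abundance. In heterozygotes against wild type, 58 of 63 (92.1%) excluded a 2-fold difference and 50 of 63 (79.4%) a 1.5-fold one. The genes whose interval reached 2-fold were Srsf12, Ptbp1, Celf3, Celf5 and Celf6 in both comparisons, and Celf4 between homozygotes and wild type. A p above the threshold does not show that levels were equal, and the intervals give the sizes that remain possible.

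**Figure D2:**
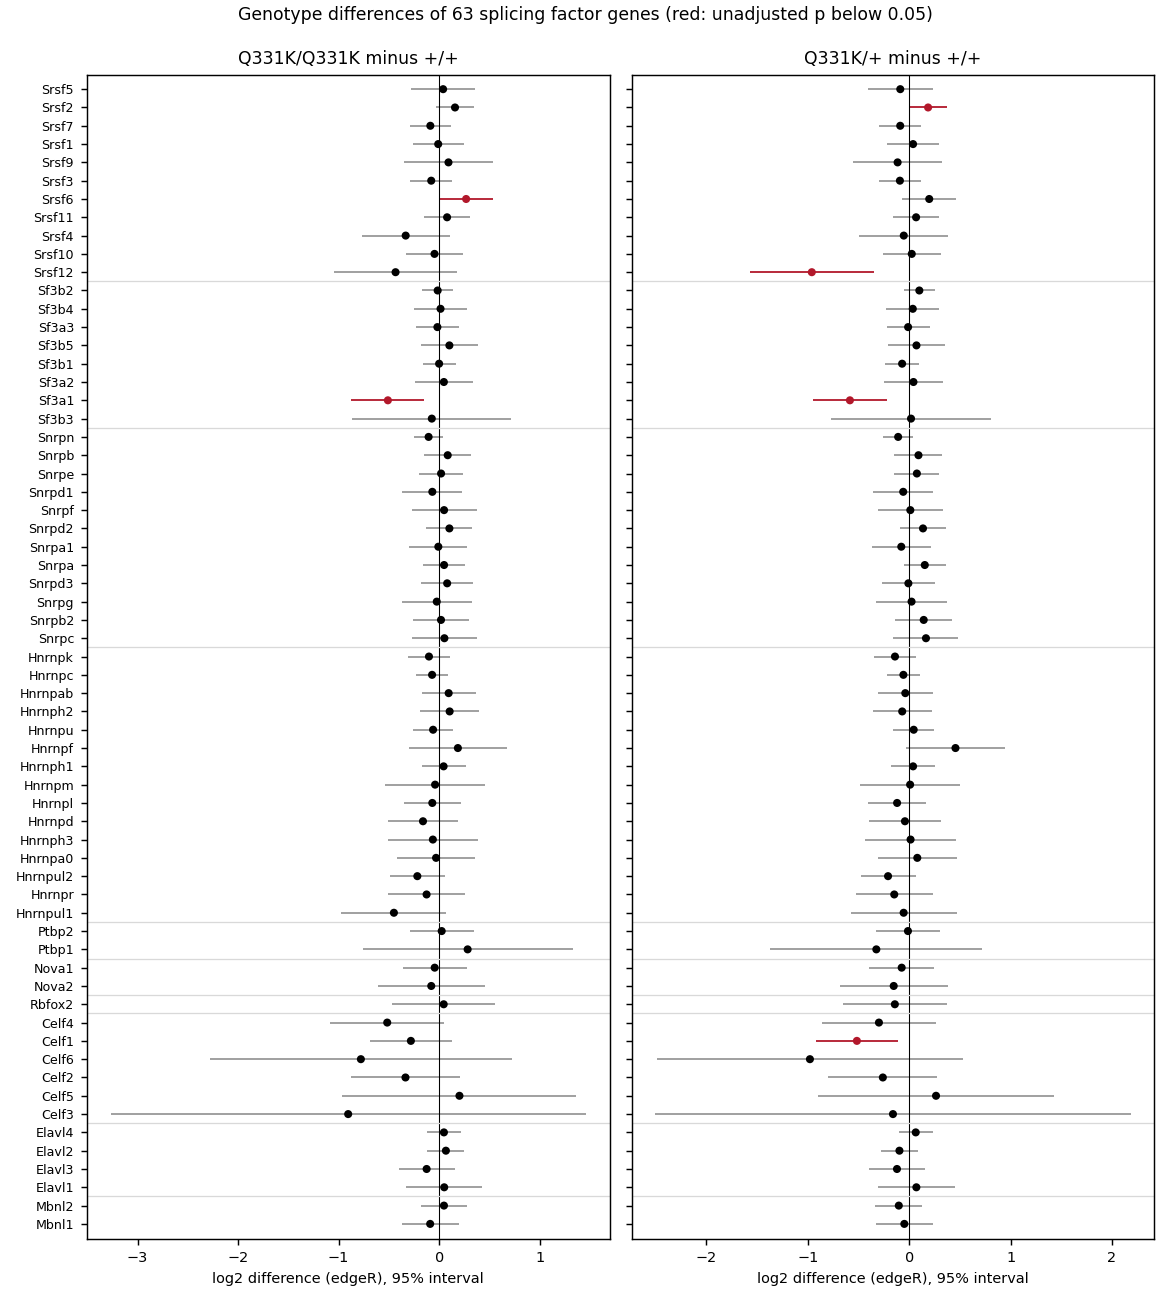
Log2 difference of each splicing factor gene between homozygotes and wild type (left) and between heterozygotes and wild type (right), with 95% intervals from edgeR. Most genes lie within 0.25 of 0; Sf3a1 at -0.51 on the left and -0.58 on the right has an interval below 0 in both panels, which share the wild type libraries, and red marks an unadjusted p below 0.05.

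Of the SR proteins, 11 were measured, from Srsf5 at 54.9 CPM per kilobase to Srsf12 at 2.93. Srsf5, an SR protein that binds exonic enhancers, had 177, 233, 276 and 223 CPM in homozygote replicates 1 to 4, 161, 225, 209 and 237 CPM in heterozygotes and 193, 222, 224 and 246 CPM in wild type. Its lowest library in each genotype was replicate 1, and the genotypes overlapped (log2 difference 0.04 in homozygotes and -0.09 in heterozygotes against wild type). Whether Srsf5 or Srsf2 led the family per kilobase depended on the length used: with the longest annotated transcript it was Srsf2.

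Srsf6, an SR protein on chr2:162931528-162937121 (plus strand), had 87.5, 86.1, 69.2 and 88.5 CPM in homozygotes, 84.6, 82.2, 77.7 and 70.9 CPM in heterozygotes and 66.5, 82.8, 68.6 and 57.2 CPM in wild type. Of the homozygote libraries, 3 lay above all wild type libraries and 1 lay among them. The log2 difference was 0.27 with an SE of 0.12 (edgeR unadjusted p = 0.0485, adjusted p = 0.986), and 0.13 per mutant allele (unadjusted p = 0.0431, adjusted p = 0.978). Srsf2, an SR protein also known as SC35 that carries recurrent mutations in human blood cancers, had 121, 126.1, 138 and 146 CPM in homozygotes, 141, 138, 139.5 and 124 CPM in heterozygotes and 119.6, 125.7, 109.6 and 122 CPM in wild type. In each mutant group 3 of 4 libraries lay above all wild type libraries, homozygote replicate 2 only narrowly so. The log2 difference was 0.19 in heterozygotes (95% interval 0.0016 to 0.37, edgeR unadjusted p = 0.0483, adjusted p = 0.999) and 0.16 in homozygotes (unadjusted p = 0.0879). Reads over Srsf2 cannot be fully told apart from its opposite-strand neighbours, since the kit keeps no strand: Mfsd11 had 79.1% and 1110005A03Rik 43.4% as many counts as Srsf2.

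Srsf12, a low-abundance relative of the SR proteins known in human assays for countering them, lies on chr4:33208991-33233340 (plus strand). It had 7.83, 7.73, 11.4 and 9.35 CPM in homozygotes, 7.70, 4.38, 6.46 and 6.67 CPM in heterozygotes and 14.7, 15.9, 11.9 and 6.68 CPM in wild type. Homozygotes lay above all heterozygotes, heterozygotes lay below 3 of 4 wild type libraries, and wild type replicate 4 lay among the mutants. The difference between heterozygotes and wild type was -0.96 with an SE of 0.28, a 1.95-fold lower level (edgeR unadjusted p = 0.00504, adjusted p = 0.999), and that between homozygotes and heterozygotes was 0.53 (unadjusted p = 0.0847, adjusted p = 1). The order of the genotypes did not follow the number of mutant alleles. The 7 other SR genes (Srsf1, Srsf3, Srsf4, Srsf7, Srsf9, Srsf10 and Srsf11) had no unadjusted p below 0.05 in any comparison.

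Nonsense-mediated decay transcripts, which many SR genes use to limit themselves, were annotated for 9 of 11 SR genes (81.8%). They were annotated for 25 of 63 splicing factors (39.7%) and for 3905 of 14487 protein-coding genes tested (27.0%). Among the 4852 protein-coding genes with at least the splicing factors' median of 7 annotated transcripts, the share was 49.3%. The deposited counts are sums over each gene, so the decay form and the coding form were counted together. The share of each form cannot be read from these values.

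The SF3 genes encode the SF3A and SF3B parts of the U2 particle, which holds the branch point. Sf3b2, an SF3B subunit, led the 8 genes at 33.0 CPM per kilobase. It had 206, 213, 226 and 226 CPM in homozygotes, 237, 250.5, 227 and 230.2 CPM in heterozygotes and 201, 226, 228 and 226 CPM in wild type. All homozygote libraries lay below all heterozygote libraries, by a narrow margin, with a log2 difference of -0.11 (edgeR unadjusted p = 0.135, adjusted p = 1). Within the bounds of the table entries Sf3b5 would lead, since its entry covers 733 bases of a longer annotated gene.

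Sf3a1, an SF3A subunit on chr11:4160350-4182541 (plus strand), gave the smallest p of the group in 3 of the 4 comparisons. It had 31.2, 32.4, 22.0 and 25.7 CPM in homozygotes, 21.8, 27.7, 28.4 and 27.8 CPM in heterozygotes and 34.4, 45.8, 32.9 and 45.4 CPM in wild type. Every mutant library lay below every wild type library, although the highest homozygote library was close to the lowest wild type one. The log2 difference was -0.51 with an SE of 0.17 in homozygotes, a 1.42-fold lower level (95% interval -0.87 to -0.15, edgeR unadjusted p = 0.00968, adjusted p = 0.986). In heterozygotes it was -0.58 with an SE of 0.17 (95% interval -0.95 to -0.22, unadjusted p = 0.00422, adjusted p = 0.999). Homozygotes and heterozygotes overlapped. The slope per mutant allele was -0.26 (unadjusted p = 0.0152, adjusted p = 0.978). Without homozygote replicate 1 and heterozygote replicate 1, the differences were -0.57 in homozygotes and -0.50 in heterozygotes. The SF3A1 protein works in a complex with SF3A2 and SF3A3. Sf3a2 averaged 24.8 ± 3.00 CPM in homozygotes, 24.7 ± 0.950 CPM in heterozygotes and 24.05 ± 3.07 CPM in wild type, and Sf3a3 averaged 69.9 ± 5.80, 70.2 ± 5.71 and 70.7 ± 5.77 CPM in the same order (SD, n = 4 each). Whether Sf3a1 differed from these partners in its response was not tested. Sf3b1, which contacts the branch point, averaged 159 ± 9.91 CPM in homozygotes, 152 ± 2.86 CPM in heterozygotes and 159 ± 10.7 CPM in wild type. Counts of Sf3b3 and Sf3a2 are uncertain, because overlapping entries on the opposite strand, Cog4 and Plekhj1, had 527% and 300.1% as many counts.

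**Figure D3:**
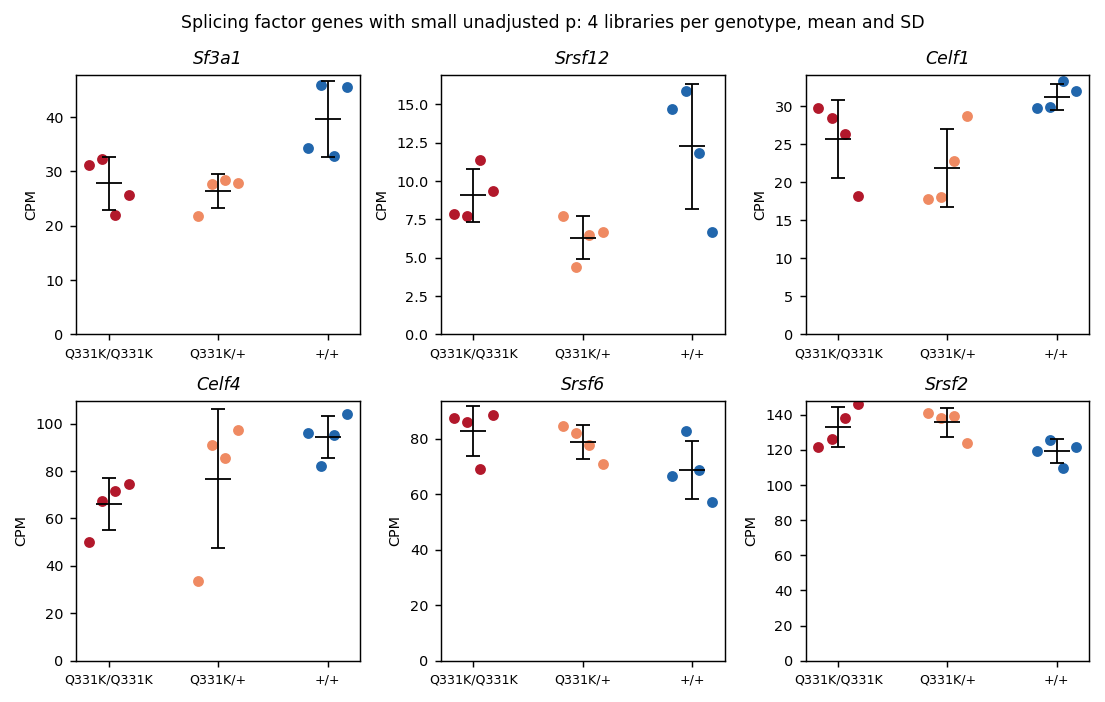
CPM of 6 splicing factor genes with small unadjusted p in each library, 4 per genotype, with the mean and SD as bars. All 8 mutant libraries lie below the 4 wild type libraries for Sf3a1 (21.8 to 32.4 against 32.9 to 45.8 CPM) and, by a narrow margin, for Celf1 (17.8 to 29.72 against 29.76 to 33.3 CPM), whereas for Srsf12, Celf4, Srsf6 and Srsf2 mutant and wild type libraries overlap.

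The Snrp genes encode the Sm ring proteins and the specific proteins of the U1 and U2 particles. Snrpn encodes SmN, the neuronal relative of the general Sm protein SmB, and lies in the imprinted region linked to Prader-Willi syndrome, on chr7:59982495-60140219 (minus strand). It had 1677, 1907, 1757 and 1809.7 CPM in homozygotes, 1638, 1834, 1749.6 and 1911 CPM in heterozygotes and 1783, 1900.5, 1970.1 and 2039.9 CPM in wild type. The genotypes overlapped, with log2 differences of -0.11 in homozygotes (95% interval -0.25 to 0.04) and -0.11 in heterozygotes (95% interval -0.25 to 0.04). Its coefficient of variation was 6.50%. Snurf, which shares its transcript and strand, was counted apart from it with 15.0% as many counts. Snrpb, the gene of SmB, had 125, 104, 120.3 and 105 CPM in homozygotes, 108, 107, 118 and 123 CPM in heterozygotes and 88.0, 105, 120.3 and 115 CPM in wild type. Per kilobase, Snrpn exceeded Snrpb 12.2-fold to 18.5-fold in the 12 libraries, with a median of 15.3-fold. All 12 Snrp genes had log2 differences between -0.11 and 0.10 in homozygotes and between -0.11 and 0.16 in heterozygotes against wild type, and for all 12 the 95% interval excluded a 1.5-fold difference in both comparisons. The other Sm genes (Snrpd1, Snrpd2, Snrpd3, Snrpe, Snrpf and Snrpg), the U1 genes Snrpa and Snrpc and the U2 genes Snrpa1 and Snrpb2 had no unadjusted p below 0.05.

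The hnRNP family was the largest, with 15 genes. Hnrnpk, a poly-C binding protein, led it at 51.0 CPM per kilobase, with 351, 312, 296 and 340.5 CPM in homozygotes, 365, 298, 291 and 311 CPM in heterozygotes and 381, 317, 362 and 334 CPM in wild type. The genotypes overlapped (log2 difference -0.10 in homozygotes and -0.14 in heterozygotes against wild type). No hnRNP gene had an unadjusted p below 0.05, and 14 of 15 lay within 0.25 of 0 in homozygotes and 14 of 15 in heterozygotes against wild type.

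The exception in homozygotes was Hnrnpul1, a relative of hnRNP U with a known part in DNA repair. It had 7.38, 12.7, 10.4 and 8.79 CPM in homozygotes, 8.32, 12.2, 16.4 and 14.7 CPM in heterozygotes and 10.6, 14.3, 13.8 and 15.0 CPM in wild type. The groups overlapped, with a log2 difference of -0.45 and an SE of 0.24 in homozygotes against wild type (edgeR unadjusted p = 0.0851, adjusted p = 0.986). Without homozygote replicate 1 and heterozygote replicate 1 it was -0.33. Against heterozygotes the difference was -0.40 (unadjusted p = 0.126, adjusted p = 1), and -0.26 without heterozygote replicate 3. Hnrnpul2, its close relative, had 27.7, 32.8, 29.0 and 28.9 CPM in homozygotes, 26.0, 30.2, 30.7 and 32.2 CPM in heterozygotes and 29.8, 31.9, 37.1 and 38.9 CPM in wild type. Its groups overlapped too, and the slope was -0.11 per mutant allele (unadjusted p = 0.0993, adjusted p = 0.978), and -0.070 without wild type replicate 4.

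The exception in heterozygotes was Hnrnpf, which binds runs of G. It had 38.2, 45.9, 39.3 and 47.2 CPM in homozygotes, 43.2, 61.1, 48.2 and 53.3 CPM in heterozygotes and 25.7, 27.6, 57.6 and 39.1 CPM in wild type. The wild type libraries spanned nearly the whole range by themselves, and the log2 difference in heterozygotes was 0.46 with an SE of 0.23 (edgeR unadjusted p = 0.0651, adjusted p = 0.999). The other G-run binders, Hnrnph1 and Hnrnph2, encode nearly the same protein from different chromosomes. Per kilobase Hnrnph1 had 0.591 times the level of Hnrnph2 in the median library, with a range of 0.443 to 0.719. Reads that fit both genes could be split between them in counting. Hnrnph1 ran from 73.9 to 97.9 CPM over the libraries, with means of 82.5 ± 10.6 CPM in homozygotes, 82.1 ± 6.39 CPM in heterozygotes and 80.0 ± 3.59 CPM in wild type. Hnrnph2, the gene with the TG run in its 5′ UTR shown above, averaged 111 ± 19.3 CPM in homozygotes, 98.3 ± 7.81 CPM in heterozygotes and 103 ± 12.6 CPM in wild type (SD, n = 4 each). Hnrnpd and Hnrnpr, whose TG runs are also shown, averaged 45.0 ± 1.94 and 31.3 ± 4.62 CPM in homozygotes, 48.9 ± 8.61 and 30.9 ± 7.59 CPM in heterozygotes, and 50.4 ± 10.3 and 34.2 ± 1.53 CPM in wild type. None of these 4 genes had an unadjusted p below 0.05.

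Hnrnpl, which binds CA repeats, had 56.4, 60.4, 64.1 and 74.2 CPM in homozygotes, 56.8, 66.6, 63.4 and 59.4 CPM in heterozygotes and 50.9, 73.0, 68.6 and 75.1 CPM in wild type. Its relative Hnrnpll, listed in the table under the older symbol Hnrpll and so not among the 63, had 0.206 times its level per kilobase in the median library (range 0.119 to 0.266). Counts of Hnrnph3, Hnrnpm and Hnrnpu are uncertain because of overlapping entries: Rufy2 on the opposite strand had 389% as many counts as Hnrnph3, and March2 and Gm16586 on the same strand 192% and 24.8% as many as Hnrnpm and Hnrnpu.

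Ptbp1 represses neuronal exons in most other cells, and Ptbp2 takes its place in developing neurons. Ptbp2 had 60.0, 48.8, 45.0 and 61.2 CPM in homozygotes, 59.2, 43.6, 59.0 and 47.9 CPM in heterozygotes and 63.1, 52.1, 48.5 and 47.7 CPM in wild type. Ptbp1 had 5.41, 5.77, 7.84 and 6.41 CPM in homozygotes, 4.32, 4.51, 7.13 and 0.727 CPM in heterozygotes and 4.23, 5.17, 5.96 and 5.54 CPM in wild type. Heterozygote replicate 4 was far below the other libraries for Ptbp1. Per kilobase Ptbp2 exceeded Ptbp1 in all 12 libraries, 2.97-fold to 34.0-fold with a median of 4.97-fold. With the longest annotated transcript as the length, the median was 7.53-fold. Counts of Ptbp1 are uncertain, because BC005764 on the opposite strand had 659% as many counts. The Ptbp1 entry had 54 counts in its lowest library and 491 in its highest.

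NOVA proteins bind clusters of YCAY motifs, and Nova1 is the form best known from spinal cord and hindbrain. It had 49.7, 54.1, 55.7 and 65.2 CPM in homozygotes, 48.7, 50.7, 49.0 and 71.7 CPM in heterozygotes and 49.1, 66.2, 56.8 and 59.8 CPM in wild type. Nova2 had 9.27, 14.3, 12.5 and 15.0 CPM in homozygotes, 8.90, 14.5, 13.02 and 12.1 CPM in heterozygotes and 15.6, 16.1, 13.98 and 8.24 CPM in wild type. The genotypes overlapped for both, and Nova1 exceeded Nova2 per kilobase in all 12 libraries, with a median of 4.05-fold and a range of 3.01-fold to 6.95-fold. Rbfox2, the only RBFOX gene among the 63, had 34.5, 45.8, 42.2 and 35.7 CPM in homozygotes, 17.2, 39.9, 40.5 and 41.4 CPM in heterozygotes and 31.8, 39.6, 42.7 and 39.3 CPM in wild type. Heterozygote replicate 1 was the lowest of all 12, and the log2 differences against wild type were 0.04 in homozygotes and -0.14 in heterozygotes. Rbfox2 averaged 4.61 CPM per kilobase, against 31.3 for Rbfox1 and 30.1 for Rbfox3, the NeuN gene, which the rule leaves out by name, and their ranges over libraries did not overlap that of Rbfox2.

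The CELF genes varied most between libraries, with a median coefficient of variation of 35.1%. The highest values were those of the low-abundance genes Celf3, Celf6 and Celf5, at 67.4%, 62.3% and 43.7% with means of 0.786, 2.98 and 2.04 CPM. Celf1, Celf2 and Celf4 lay between 21.4% and 26.5%, near Sf3a1 at 24.9% and Hnrnpf at 24.6%. Of 6 genes, 5 had a log2 difference below 0 in homozygotes and 5 in heterozygotes against wild type, with medians of -0.43 and -0.28. Of all genes, 49.4% and 49.7% lay above 0 in these comparisons. Celf2, Celf4 and Celf6 lay below the other 10 libraries in both homozygote replicate 1 and heterozygote replicate 1. The part of these libraries in the medians was not tested. None of the 6 CELF genes passed the test, and the median SE of their differences was 0.40 against 0.13 for the 63 genes, so the intervals were wide. Celf4, a mostly neuronal member whose loss causes seizures in mice, had 50.1, 67.4, 71.6 and 74.7 CPM in homozygotes, 33.4, 90.8, 85.4 and 97.2 CPM in heterozygotes and 96.2, 82.2, 95.1 and 104 CPM in wild type. All homozygotes lay below all wild type libraries, while 3 of 4 heterozygote libraries lay among wild type and heterozygote replicate 1 was the lowest of all. The log2 difference in homozygotes was -0.52 with an SE of 0.26 (95% interval -1.08 to 0.05, edgeR unadjusted p = 0.0701, adjusted p = 0.986), and the slope was -0.26 per mutant allele (unadjusted p = 0.0575, adjusted p = 0.978). Without homozygote replicate 1 and heterozygote replicate 1 the difference in homozygotes was -0.40 and the slope -0.19.

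Celf1, a GU-rich element binder found in most tissues, lies on chr2:90940382-91019497 (plus strand). It had 29.7, 28.4, 26.4 and 18.2 CPM in homozygotes, 17.8, 18.1, 22.8 and 28.7 CPM in heterozygotes and 29.8, 29.8, 33.3 and 32.0 CPM in wild type. Neither mutant group overlapped wild type, though the highest homozygote library almost met the lowest wild type one. The log2 difference was -0.28 in homozygotes (edgeR unadjusted p = 0.158, adjusted p = 0.986) and -0.52 with an SE of 0.19 in heterozygotes, a 1.43-fold lower level (unadjusted p = 0.0172, adjusted p = 0.999). Without the 2 interneuron-poor libraries the difference in heterozygotes was -0.43. Celf4 exceeded Celf1 per kilobase by a median of 2.99-fold, with a range of 1.66-fold to 4.95-fold. This fold depended on the length used: with the longest annotated transcript the median was 5.97-fold. Celf2, Celf3, Celf5 and Celf6 ranged from 0 to 25.6 CPM, and none had an unadjusted p below 0.05.

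The ELAVL proteins bind AU-rich RNA, and Elavl2, Elavl3 and Elavl4 are the neuronal forms. Elavl4, also called HuD, led the family at 40.1 CPM per kilobase and was among the steadiest of the 63 genes, with a coefficient of variation of 5.76%. It had 219.5, 199, 224 and 228 CPM in homozygotes, 235, 229, 201 and 216 CPM in heterozygotes and 211, 218, 196 and 218 CPM in wild type. Its log2 differences against wild type were 0.05 in homozygotes (95% interval -0.12 to 0.22) and 0.06 in heterozygotes (95% interval -0.11 to 0.23). The form found in most tissues, Elavl1, had 52.0, 42.5, 34.8 and 45.3 CPM in homozygotes, 47.4, 36.3, 40.3 and 52.9 CPM in heterozygotes and 36.9, 49.1, 49.5 and 33.1 CPM in wild type. Elavl4 exceeded it per kilobase by a median of 9.54-fold (range 7.63-fold to 12.7-fold), or 6.87-fold with the longest annotated transcript as the length. Elavl2 gave the smallest p between homozygotes and heterozygotes, with 148, 142, 143 and 134 CPM in homozygotes, 121, 118, 137 and 129.8 CPM in heterozygotes and 152, 135, 129 and 125 CPM in wild type. Homozygote replicate 4 lay among the heterozygotes, and the log2 difference was 0.16 (edgeR unadjusted p = 0.0782, adjusted p = 1).

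MBNL proteins are the factors trapped by repeat RNA in myotonic dystrophy, and Mbnl2 is the main form in brain. Mbnl2 had 276, 252, 266 and 249 CPM in homozygotes, 263, 239, 204 and 233 CPM in heterozygotes and 295, 254, 252 and 209 CPM in wild type. The genotypes overlapped, and the log2 difference between homozygotes and heterozygotes was 0.15 (edgeR unadjusted p = 0.184, adjusted p = 1), and 0.089 without heterozygote replicate 3. Mbnl1 had 110.3, 134, 139 and 151 CPM in homozygotes, 141, 154, 124 and 132 CPM in heterozygotes and 121, 163, 123 and 163 CPM in wild type. Mbnl2 exceeded Mbnl1 per kilobase by a median of 2.84-fold (range 2.01-fold to 3.91-fold), or 1.85-fold with the longest annotated transcript as the length.

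The balance within related genes was compared between genotypes as the log2 ratio of CPM per kilobase in each library. With 8 pairs and 3 comparisons each, 24 exact two-sided permutation tests were run, in which 4 against 4 libraries cannot give a p below 0.0286. After adjustment over the 24, a pass would have needed at least 14 tests at that smallest p, so no single pair could pass and the tests say little about whether the balance differed. The smallest p was that of Snrpn over Snrpb, which averaged 3.84 ± 0.090 in heterozygotes and 4.05 ± 0.13 in wild type (log2 ratio, SD, n = 4 each, exact permutation p = 0.0571, adjusted p = 1). Homozygotes averaged 3.85 ± 0.21 for this ratio (exact permutation p = 0.2 against wild type, adjusted p = 1). Nova1 over Nova2 and Elavl4 over Elavl1 averaged 2.09 ± 0.21 and 3.28 ± 0.26 in homozygotes, 2.12 ± 0.38 and 3.27 ± 0.26 in heterozygotes, and 2.08 ± 0.51 and 3.29 ± 0.33 in wild type.

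**Figure D4:**
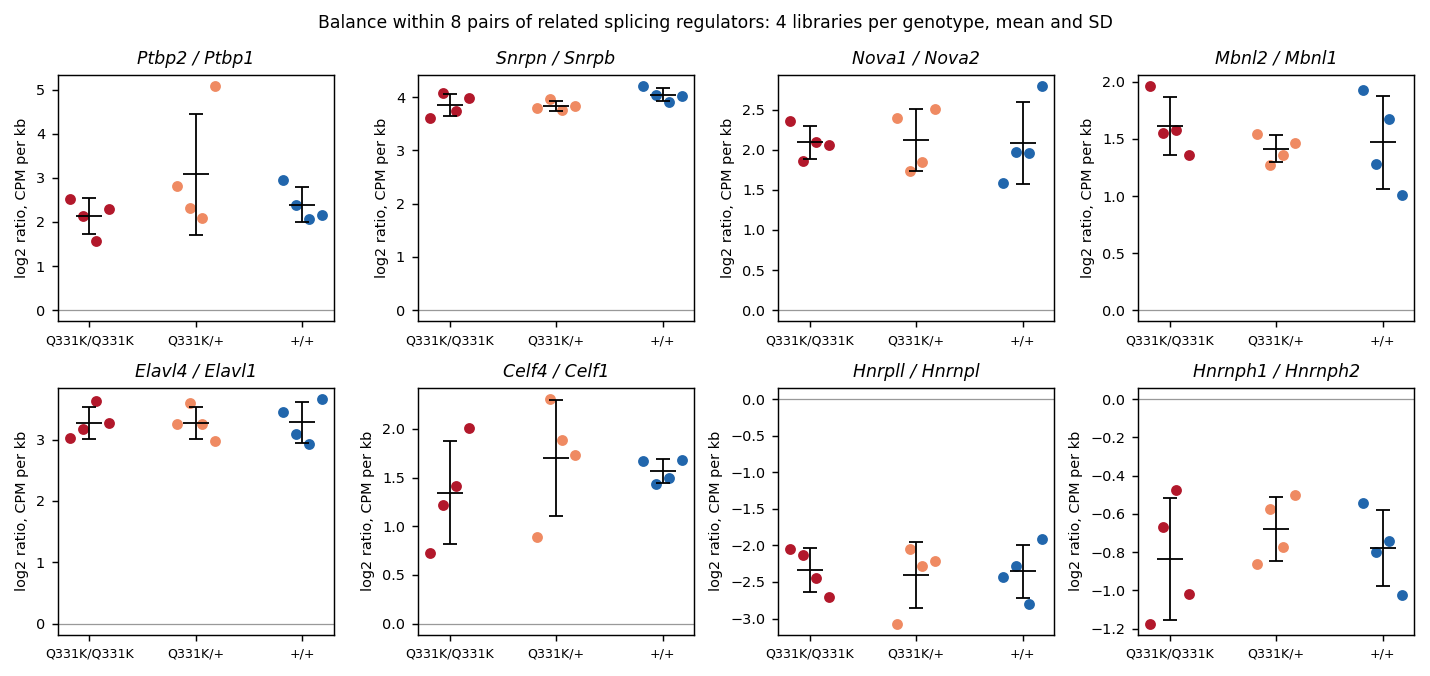
Log2 ratio of CPM per kilobase within 8 pairs of related splicing regulators in each library, 4 per genotype, with the mean and SD as bars and a line at equal levels. The ratio is above 0 in all 12 libraries for Ptbp2, Snrpn, Nova1, Mbnl2, Elavl4 and Celf4 over their partners and below 0 for the last 2 pairs, and genotypes overlap in 8 of 8 panels.

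The 2 interneuron-poor libraries, homozygote replicate 1 and heterozygote replicate 1, lay together outside the range of the other 10 for 10 splicing factors. Above the others were 3 genes (4.76%, against 10.3% of all genes) and below them 7 (11.1%, against 10.6%). The widest gap was that of Celf4, at 50.1 and 33.4 CPM against 67.4 to 104 CPM. Celf2, another CELF gene, followed with 12.01 and 11.99 CPM against 15.2 to 25.6 CPM. Hnrnpab, which binds RNA and single-stranded DNA, was higher, at 133 and 120.3 CPM against 88.6 to 107 CPM. Its counts are uncertain, because the overlapping entry Agxt2l2 on the opposite strand had 37.5% as many. The SF3B subunit Sf3b5 was higher too, at 94.7 and 86.5 CPM against 60.5 to 80.8 CPM. Srsf5, Hnrnpul1, Hnrnpul2, Snrpn and Celf6 lay below the others and Snrpb2 above, by at most 0.13 on the log2 scale. All 4 excitatory and 6 inhibitory interneuron markers listed were in the table. By genotype the excitatory markers summed to 4.99 to 245 CPM in homozygotes, 0.563 to 326 CPM in heterozygotes and 238 to 328 CPM in wild type, and the inhibitory ones to 0.870 to 301 CPM, 3.75 to 314 CPM and 179.6 to 426 CPM in the same order. Gad2 was at 0 in both libraries, and Slc6a5 and Gad1 were at 0 in homozygote replicate 1. The 7 astrocyte markers summed to 631 and 558 CPM there, against 904 to 1528 CPM in the other 10 and 990.2 to 1528 CPM in wild type. Most of each sum was Aldoc, at 511 and 467 CPM there against 790.8 to 1281 CPM in the other 10. Only Aldoc lay below the other 10 in both libraries. Aqp4, at 25.9 and 23.5 CPM, lay within their range of 8.03 to 30.6 CPM, so the astrocyte markers were not low as a set. The part of interneuron or astrocyte RNA in these values was not tested.

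A further split went with the replicate number. The 3 libraries numbered 1, of all 3 genotypes, lay together below the other 9 for 4 splicing factors (6.35%, against 4.71% of all genes) and above them for 0 (against 4.79%). For the numbers 2, 3 and 4 these shares of all genes ran from 0.226% to 0.637%. Hnrnpm showed it most, with 62.96 CPM in homozygote, 74.2 CPM in heterozygote and 65.6 CPM in wild type replicate 1, against 103 to 126 CPM in the other 9. Hnrnpl, Srsf5 and Rbfox2 were the other 3, and Srsf5 is also among the 10 of the interneuron-poor libraries. Of the libraries numbered 1, 2 are the interneuron-poor ones. By themselves these lay above the other 10 libraries for 10.3% of all genes and below them for 10.6%. The shares for number 1 are therefore not directly comparable with those for 2, 3 and 4. The labels do not say what the numbers stand for, and this split was noticed after the values were seen.

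**Figure D5:**
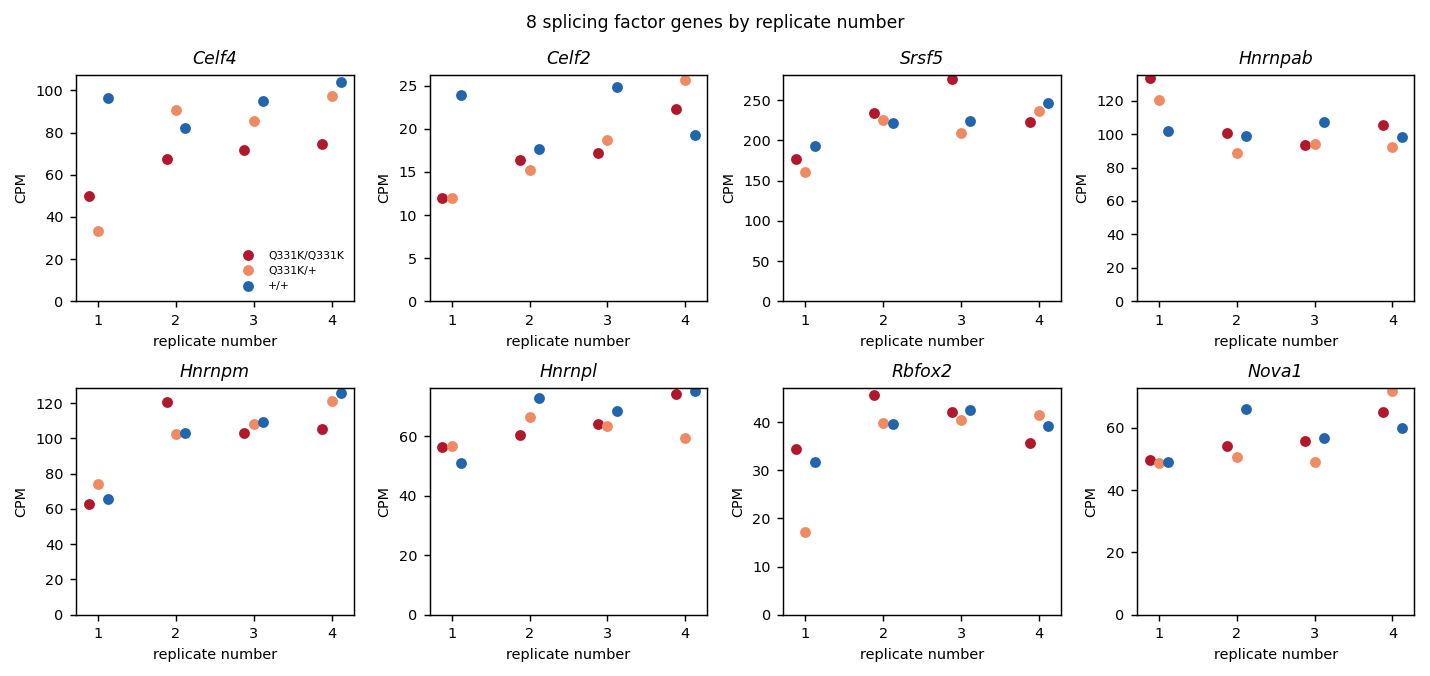
CPM of 8 splicing factor genes in each library by replicate number, with colours for genotype. Hnrnpm is at 62.96 to 74.2 CPM in the 3 libraries numbered 1 and at 103 to 126 CPM in the other 9, whereas Celf4 is low in homozygote and heterozygote replicate 1 but not in wild type replicate 1.

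The rest of the splicing machinery was taken from 5 lists of 121 genes outside the 63, of which 120 were tested. None of the 120 was called by edgeR in any of the 4 comparisons. The list of 57 other spliceosome genes also held Lsm10 and Lsm11, which belong to the U7 particle that cuts histone RNA. Of these 57, 4 had an unadjusted p below 0.05 and lay higher in homozygotes than in wild type, and 0 lay lower, against 2.19% and 2.63% of all genes. Heterozygotes gave 3 higher and 0 lower, against 1.79% and 2.31%, and the median log2 differences were 0.06 in homozygotes and 0.04 in heterozygotes. Rbm17, a U2-associated factor, averaged 89.6 ± 3.67 CPM in homozygotes, 94.6 ± 4.08 CPM in heterozygotes and 78.9 ± 4.41 CPM in wild type (SD, n = 4 each), with a log2 difference of 0.26 in heterozygotes (edgeR unadjusted p = 0.00467, adjusted p = 0.999). Prpf38a, a protein that joins the spliceosome before its activation, averaged 35.7 ± 4.53 CPM in homozygotes, 29.9 ± 4.91 CPM in heterozygotes and 25.3 ± 5.91 CPM in wild type, a slope of 0.25 per mutant allele (unadjusted p = 0.0146, adjusted p = 0.978). Lsm10, of the U7 particle, averaged 17.5 ± 1.22 CPM in homozygotes, 17.8 ± 2.31 CPM in heterozygotes and 13.2 ± 1.83 CPM in wild type. It was among the 3 that lay higher in heterozygotes, with a log2 difference of 0.43 (edgeR unadjusted p = 0.0158, adjusted p = 0.999).

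Among 15 SR-related proteins and SR kinases, 0 had an unadjusted p below 0.05, and the smallest p belonged to Son, Tra2a and Clk1. The SMN complex loads Sm rings onto RNA, and its SMN protein is reduced in spinal muscular atrophy. Of 12 genes of the SMN complex and Sm ring assembly, Gemin8 averaged 7.95 ± 3.86 CPM in homozygotes, 8.53 ± 1.47 CPM in heterozygotes and 5.29 ± 0.636 CPM in wild type. Gemin6 was at 12.99 ± 2.28, 11.4 ± 0.819 and 15.1 ± 2.33 CPM in the same order (edgeR unadjusted p = 0.0394 for Gemin8 and 0.0409 for Gemin6 between heterozygotes and wild type, adjusted p = 0.999 for both). Of 31 other regulators tested, Raver2, a PTB partner, averaged 7.13 ± 3.28 CPM in homozygotes and 13.2 ± 2.06 CPM in heterozygotes (unadjusted p = 0.0154, adjusted p = 1), with 8.12 ± 1.94 CPM in wild type. Pspc1, a paraspeckle protein, averaged 53.3 ± 1.40 CPM in homozygotes, 44.4 ± 5.74 CPM in heterozygotes and 51.2 ± 4.80 CPM in wild type. Of the 5 genes left out by name, Rbfox3 had the smallest p, with 187 ± 29.2 CPM in homozygotes, 179 ± 19.5 CPM in heterozygotes and 161 ± 10.5 CPM in wild type (slope 0.11 per mutant allele, edgeR unadjusted p = 0.0769, adjusted p = 0.978).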

How the data were processed

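Polyadenylated RNA of laser-captured motor neurons was amplified with a template-switching method suited to tiny inputs, and libraries were made with a transposase, per the labels' protocols; these kits add no molecular identifiers and keep no strand. The deposited table holds raw counts per gene, made by the authors with Trim Galore 0.4.3 for trimming, HISAT2 2.0.5 for alignment and GRCm38 as the genome, per the submitters' processing notes. For the counting program and its annotation, nothing was given in the sources used here. The 12 columns were matched to samples by genotype and replicate number in their names.

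Symbols were matched to GENCODE M21 for exon lengths, transcripts and overlaps; all 63 genes matched, 37 with the same start and end. In R 4.3.3, edgeR 4.0.16 kept 16338 genes (filterByExpr), all 63 among them. Counts were scaled by TMM (factors 0.940 to 1.03) and fitted by glmQLFit over 12 libraries with 3 genotypes, and again with the number of mutant alleles as a slope. Tests were two-sided, with a Benjamini-Hochberg adjusted p below 0.05 as the threshold. The biological coefficient of variation was 0.569. Libraries of a genotype differed by more than counting error (smallest chi-square per degree of freedom 57.6 over 18 pairs), so none were merged; this does not show that they came from separate animals. The fitting steps were tested on simulated data.

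The alternatives were the size factors and Wald test of DESeq2 1.42.0, no filter, replicate number as a block, only the 8 libraries compared, leaving out each library or both interneuron-poor ones, a pseudocount of 1 CPM for the pairs, and other lengths. Named were the leader of each family, both genes of 8 pairs, the 5 smallest p in each comparison, the 8 widest gaps of the interneuron-poor libraries, genes at the edge of the count rule and, of each other list, the 3 smallest p; Sf3a2, Sf3a3, Sf3b1, Hnrnpd, Hnrnpr and Hnrnpm were named outside this rule after their values were seen, as were genes given only in counts. The genes and lists were chosen with earlier results of these data known.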

Additional observations from a re-analysis of the deposited data

Results flagged for a closer look

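In groups of 4 libraries, a library was singled out where its gap to the nearest other exceeded Dixon's 95% critical value for 4 values. Among 93 groups of the 31 named splicing factors this picked 7, and among 189 groups of all 63 genes 13; chance picks about 1 in 20.

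In heterozygote replicate 1, Rbfox2 was at 17.17 CPM against 39.92 to 41.45 CPM in the other 3 heterozygotes, Sf3a1 at 21.79 against 27.67 to 28.43 CPM, and Hnrnpab at 120.3 against 88.61 to 93.99 CPM. Heterozygote replicate 1 is also interneuron-poor, and the part of that in these values was not tested. In heterozygote replicate 4, Nova1 was at 71.69 CPM against 48.73 to 50.72 CPM and Srsf2 at 123.6 against 138.3 to 140.9 CPM. In homozygote replicate 3, Srsf6 was at 69.24 CPM against 86.05 to 88.46 CPM in the other homozygotes. In wild type replicate 1, Sf3b2 was at 201.5 CPM against 225.6 to 228.3 CPM in the other wild type libraries.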

How the results depend on the processing

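The number of splicing factors called stayed at 0 in each of the 4 comparisons under all alternatives run. The 20 named differences were recomputed 355 times in all, with 0 changes of direction and 0 moves across the threshold. Sf3a1 ranged from -0.59 to -0.41 in homozygotes and from -0.66 to -0.50 in heterozygotes, Srsf12 from -1.16 to -0.81 in heterozygotes, Celf1 from -0.67 to -0.43 in heterozygotes and Celf4 from -0.58 to -0.40 in homozygotes. Hnrnpf in heterozygotes ranged from 0.31 to 0.75, the highest without wild type replicate 3. Of the 20, the 3 others that moved over 1.5 times without 1 library (Hnrnpul1 and Mbnl2 between homozygotes and heterozygotes, and the Hnrnpul2 slope) are given above. Over all genes, DESeq2 called 13, 9, 3 and 11 (homozygotes and heterozygotes against wild type, homozygotes against heterozygotes, and slope) where edgeR called 1, 0, 0 and 1. The paired balances gave 0 passes in 15 settings, which says nothing of stability, since the smallest p was 0.0286 for 4 against 4 libraries, 0.0571 for 3 against 4 and 0.125 with the block; 3 splicing factors above and 7 below in the interneuron-poor libraries held with the size factors of DESeq2, and family leaders held in 9 of 10 families with either other length.

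Same-numbered libraries correlated between -0.05 and 0.45 in their deviations, with 3 of 12 pairs over 0.1 and 9 of 24 correlating best with their own number. The 3 pairs were those among the libraries numbered 1. Homozygote and heterozygote replicate 1 correlated at 0.45, and wild type replicate 1 at 0.11 with each, while pairs of unlike number reached 0.13. Since not every pair passed 0.1, the numbers were not taken to pair the libraries, though number 1 stood apart for the genes given above. With the replicate number as a block, 0 of 63 were called in each comparison and 5, 5, 0 and 5 had an unadjusted p below 0.05, against 1431, 1157, 606 and 1454 of all genes (787, 670, 486 and 763 without it). The block called 4 genes in all for the slope. The length of exons inside the table entries was added after the data were seen. Depth limits Celf3, with 0 to 147 counts per library, and Ptbp1, with 54 to 491.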
